A study of Mus musculus with 29 samples.

Results

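Lysyl oxidase genes and genes of elastic fibres were followed in bulk RNA-seq of mesenchymal cells sorted from around the mouse common bile duct. The set holds 10 of the 55401 genes in the count tables and was chosen by symbol, with 5 lysyl oxidases (Lox, Loxl1, Loxl2, Loxl3 and Loxl4) and 5 genes of the elastic fibre (Eln, Fbn1, Fbln5, Mfap4 and Mfap5). Lysyl oxidases are secreted, copper-dependent enzymes that oxidise lysines of collagen and elastin, which then form crosslinks between molecules. Elastin, the product of Eln, is deposited on microfibrils built from fibrillin 1, the product of Fbn1, and fibulin 5 (Fbln5) binds both elastin and Loxl1. Mfap4 and Mfap5 encode microfibril-associated glycoproteins that bind elastin and fibrillin. Around ducts and vessels such fibres give the wall its recoil, and lysyl oxidases are studied in biliary fibrosis for their crosslinking of scar collagen.

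The series holds 29 libraries in 9 groups, each from about 1000 cells sorted from 1 animal, per the labels' protocol. Cells carrying the Gli1:CreERT2 driver and the Rosa26:lox-STOP-lox-tdTomato reporter gave 3 uninjured libraries and 3 libraries taken at day 4 of bile duct ligation (BDL). With that reporter and Pdgfra:CreERT2, Wild Type had 5 libraries, Gli2FFGli3FF 4, SmoFF 4, SmoM2 3, Ctnnb1FF 3, Gli3FF 2 and Gli2FF 2. The suffix FF by convention stands for homozygous loxP-flanked alleles, which Cre removes from Pdgfra-expressing cells, and SmoM2 is an active form of the Hedgehog transducer Smo. All groups carry CreERT2 and the reporter, and the labels give no ages, no sham-operated group and not the exons flanked by loxP. For replicate 5 of wild type the description names SmoFF, which its title and genotype label do not. It was kept as wild type, and Smo was at 22.6 to 36.3 CPM (counts scaled to a common library size) in the 5 wild type libraries against 6.81 to 9.05 CPM in SmoFF. Ctnnb1 was at 37.98 to 47.9 CPM in Ctnnb1FF against 53.2 to 64.2 CPM in wild type, and Gli3 at 12.3 to 14.4 CPM in Gli3FF and 2.83 to 7.63 CPM in Gli2FFGli3FF against 30.8 to 44.9 CPM. These 2 genes do not tell the Ctnnb1FF and Gli3FF genotypes apart, since Ctnnb1 was at 37.7 to 45.6 CPM in Gli3FF and Gli3 at 8.36 to 16.2 CPM in Ctnnb1FF. Gli2 was at 6.91 and 12.8 CPM in Gli2FF, where the higher library reached the lowest wild type level, and at 1.55 to 6.39 CPM in Gli2FFGli3FF, against 12.7 to 20.9 CPM. It was at 5.55 to 13.4 CPM in Ctnnb1FF and at 8.63 and 26.3 CPM in Gli3FF, so Gli2 does not tell Gli2FF from Ctnnb1FF. Without the exons removed, a gene's summed count checks the labels only in part. In SmoM2 the Hedgehog target Ptch1 was at 248 to 385 CPM against 20.6 to 37.0 CPM. Ptch1 did not set SmoFF apart from wild type, at 24.6 to 34.0 CPM, and Gli1 overlapped (4.29 to 18.9 against 7.96 to 27.0 CPM). Ptch1 was above every wild type library in Ctnnb1FF (58.1 to 117 CPM) and Gli3FF (83.3 to 126 CPM). It overlapped wild type in Gli2FF (28.8 to 120 CPM) and Gli2FFGli3FF (33.0 to 76.2 CPM). Gli1 was below every wild type library in Gli2FFGli3FF (0.27 to 2.51 CPM) and in Ctnnb1FF (0.952 to 4.303 CPM). Ptch1 and Gli1 thus lay on opposite sides of wild type in Ctnnb1FF. In Gli2FF (4.73 to 12.9 CPM), Gli3FF (8.31 to 29.3 CPM) and SmoM2 (17.5 to 52.7 CPM) Gli1 overlapped wild type.

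Total counts were 15021796 to 38301189 per library. Fibroblast markers (7 genes) summed to 13883 to 48206 CPM in each library, against 0.0784 to 18.2 CPM for 7 endothelial and 0.151 to 26.7 CPM for 7 pancreatic acinar markers. Most of the fibroblast sum in the ligated libraries (38591 to 48206 CPM) was Col1a1 alone, at 31050 to 41418 CPM. The 7 immune markers reached 369.5 CPM and the 7 cholangiocyte markers 664 CPM in the libraries where they were highest. The ribosomal RNA locus took 13.4 to 29.4% of counts in wild type, 28.0 to 34.4% in Ctnnb1FF, 24.5 to 39.1% in Gli3FF, 38.4 to 50.03% in Gli2FFGli3FF and 8.56 to 13.5% in Gli2FF. Genes detected numbered 21127 to 24483 in wild type, 15892 to 17726 in Ctnnb1FF and 17508 to 20055 in Gli2FFGli3FF. Wild type replicates 1 to 3 stood apart from replicates 4 and 5: 353 of 55401 genes lay at least 2 log2 units higher in every library of the first set than in any of the second, and 27 lay as far lower. Xist was at 0.169 CPM or less in wild type and at 6.17 to 46.4 CPM in Gli2FFGli3FF, where Y-linked Ddx3y was at 0.567 to 103 CPM, so transcripts of both sexes lay within a library there although the protocol names individual animals. They also did in SmoFF replicates 1 and 4 (Xist 252 and 389.7 CPM, Ddx3y 8.48 and 13.9 CPM), Gli3FF replicate 2 (258 and 45.4 CPM) and, with Ddx3y at 1.65 CPM beside Xist at 965 CPM, Gli2FF replicate 2. In Ctnnb1FF Xist was at 14.2 to 60.7 CPM and Ddx3y at 0.100 CPM or less, while Ddx3y was at 37.6 to 63.1 CPM in wild type, so sex and genotype cannot be told apart in that comparison. The part of these differences in the results below was not tested beyond the settings named.

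In build GRCm38 (GENCODE M21 annotation) all 10 are protein-coding genes. Loxl1 lies on chromosome 9 from 58287738 to 58313186, Loxl2 on chromosome 14 from 69609068 to 69695834, Loxl3 on chromosome 6 from 83034173 to 83052562 and Loxl4 on chromosome 19 from 42593982 to 42612813. Eln lies on chromosome 5 from 134702593 to 134747323, Fbn1 on chromosome 2 from 125300594 to 125507993 and Fbln5 on chromosome 12 from 101746565 to 101819055. Mfap4 lies on chromosome 11 from 61485431 to 61488900, and Mfap5 on chromosome 6 from 122505845 to 122529290.

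Promoter sequences from RefSeq (GRCm38.p6) matched 3 of the 10 genes, Fbn1, Fbln5 and Loxl4, in 4 windows. Those of Fbn1 and Fbln5 are shown because the 2 genes had different patterns across the Hedgehog and Ctnnb1 genotypes below. Each line gives 250 bases before a RefSeq transcription start on the minus strand, 5′ to 3′, at chr2:125506439-125506688 for Fbn1 and chr12:101819120-101819369 for Fbln5. Capitals mark GC boxes (GGGCGG, or CCGCCC on the other strand) and ACCACCC, the core of the Gli binding consensus (GGGTGGT on the other strand).
Fbn1: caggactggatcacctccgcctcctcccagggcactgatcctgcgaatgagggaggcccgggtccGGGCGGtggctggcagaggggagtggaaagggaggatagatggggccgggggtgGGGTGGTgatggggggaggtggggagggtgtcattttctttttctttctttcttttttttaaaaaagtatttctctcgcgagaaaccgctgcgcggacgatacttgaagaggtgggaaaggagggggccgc
Fbln5: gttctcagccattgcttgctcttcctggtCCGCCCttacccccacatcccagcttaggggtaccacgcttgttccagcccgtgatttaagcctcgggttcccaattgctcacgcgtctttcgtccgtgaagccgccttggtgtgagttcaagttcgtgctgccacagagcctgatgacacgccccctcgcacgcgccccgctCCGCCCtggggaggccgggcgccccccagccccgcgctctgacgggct
The full Gli consensus GACCACCCA and the TCF/LEF core ATCAAAG were searched on both strands too and were in none of the 4 windows. Among 32851 promoter windows of this length 0.225% held GACCACCCA, 3.92% ACCACCC, 3.21% ATCAAAG and 32.7% a GC box. The core ACCACCC is part of the full consensus, and was found in the window of Fbn1 alone. The Fbln5 window not printed, at chr12:101818485-101818734 before another RefSeq start, held none of the 4 motifs, and the Loxl4 window held GC boxes. These matches describe letters in a window and not bound sites.

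After ligation the lysyl oxidases Lox and Loxl2 and the elastin gene rose, Mfap4 rose less, and Fbln5 and Mfap5 fell. Of the 10 genes, 4 rose and 2 fell (edgeR's quasi-likelihood test, Benjamini-Hochberg adjusted p under 0.05), where 13.6% of 17150 genes tested changed, 7.77% upward and 5.8% downward. Every ligated library lay above every uninjured one for 5 of the 10 genes and below for 2, against 22.3% and 15% of all genes. The median log2 change of the 10 was 0.58, against 0.07 over all genes. Without ligated replicate 2 or 3 the number called was 3. In bulk libraries, fewer cells of a type and less RNA per cell cannot be told apart. With no sham group, ligation and surgery cannot be told apart.

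Lox, the founding member of the enzyme family, was at 135, 117 and 116 CPM in the uninjured libraries and 1429, 1234 and 1193 CPM after ligation. The groups lay far apart, and the rise was 10.5-fold (log2 change 3.39, SE 0.16, adjusted p = 0.000508). Loxl2, which acts on collagen IV and fibrillar collagens, was at 54.2, 64.0 and 69.1 CPM and then 369.5, 299 and 231 CPM. It too was higher in every ligated library (log2 change 2.26, SE 0.23, adjusted p = 0.00327). Both calls held in all 15 other settings, with adjusted p up to 0.0142 for Lox and 0.0354 for Loxl2.

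Loxl1, the family member tied to elastic fibre upkeep, was at 665, 859 and 781 CPM uninjured and 578, 698 and 716 CPM ligated. Its groups overlapped and it was not called, with a 95% interval of the log2 change from −0.54 to 0.12. Loxl3 overlapped as well, at 48.2 to 90.03 CPM and 63.3 to 92.9 CPM. Loxl4 was scarce, at 1.36 to 5.17 CPM uninjured and 7.58 to 13.8 CPM ligated. All its ligated libraries were higher, but edgeR did not call the change (log2 change 1.82, SE 0.66, adjusted p = 0.134), while DESeq2 did (adjusted p = 0.0306).

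The make-up of the family differed after ligation. Per kilobase of exon, which makes genes comparable within a library, Loxl1 made up 79.8, 82.3 and 83.1% of the summed lysyl oxidase CPM in uninjured libraries and Lox 11.2, 7.74 and 8.49%. In ligated libraries Lox made up 52.9, 47.3 and 47.5% and Loxl1 31.0, 38.8 and 41.4%. The summed level was 253 to 317 CPM per kb before and 525 to 566 CPM per kb after, so Lox took the leading place while the total was higher in every ligated library. Loxl2 went from 3.74 to 4.49% of the sum to 8.14 to 12.1%.

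**Figure D1:**
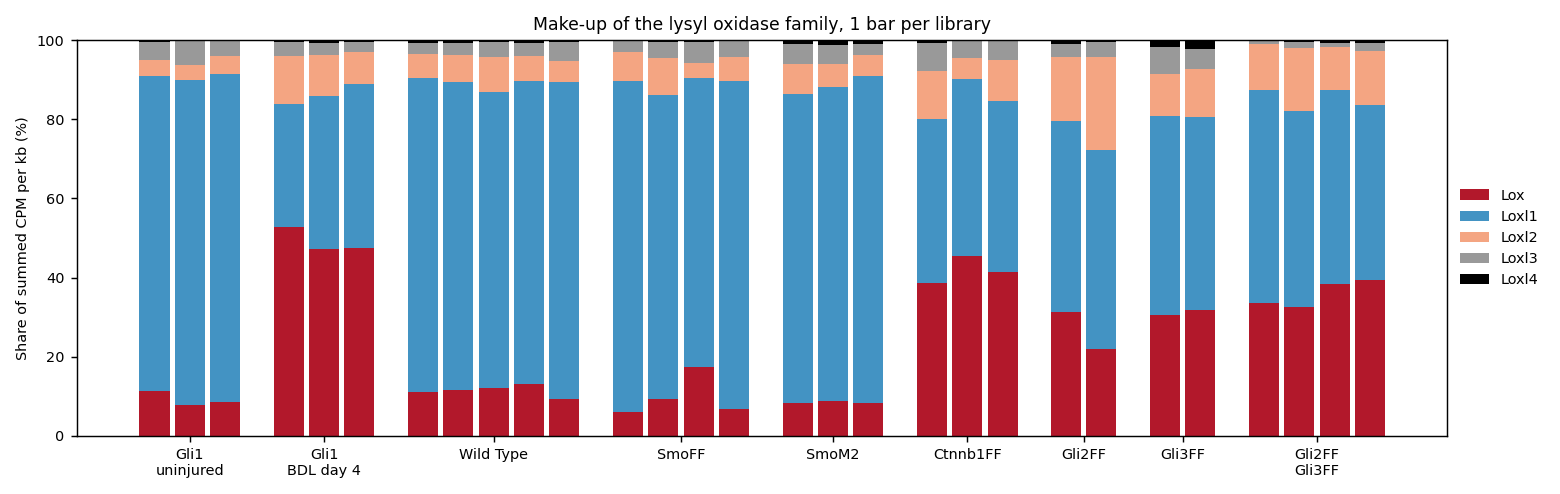
Share of each lysyl oxidase in the summed CPM per kb of the 5 genes (percent, vertical axis), with 1 stacked bar per library and the libraries grouped by title (horizontal axis). Loxl1 fills most of each uninjured, wild type, SmoFF and SmoM2 bar, while Lox takes 47.3 to 52.9% in the 3 ligated libraries and 21.9 to 45.5% in the Ctnnb1FF, Gli2FF, Gli3FF and Gli2FFGli3FF libraries.

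Eln, the elastin gene, was at 277, 344 and 151 CPM uninjured and 1016, 1292 and 600.0 CPM ligated. The groups did not overlap (log2 change 1.91, SE 0.40, adjusted p = 0.0263). The call was lost without uninjured replicate 1 (adjusted p = 0.0572) and without ligated replicate 1, 2 or 3 (adjusted p = 0.0809, 0.109 and 0.0607). Fbn1, the microfibril backbone, was at 1288, 1389 and 1122 CPM and 941, 1437 and 1327 CPM. Those ranges overlapped, and the 95% interval of its log2 change ran from −0.43 to 0.36.

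Fbln5, the adaptor between elastin and Loxl1, had the largest fall of the 10. It was at 445, 403 and 408 CPM uninjured and 39.5, 62.0 and 32.5 CPM ligated, 9.38-fold lower (log2 change −3.23, SE 0.28, adjusted p = 0.00189), and the call held in all 15 other settings. Mfap5 was at 1687, 2339 and 1839 CPM and then 845, 606 and 654 CPM (log2 change −1.48, SE 0.20, adjusted p = 0.00901). Its groups did not overlap, and its call was lost without ligated replicate 2 or 3 (adjusted p = 0.0635 and 0.0723). Mfap4 moved the other way, from 444, 528 and 488 CPM to 829.5, 1024 and 788 CPM (log2 change 0.86, SE 0.16, adjusted p = 0.0227). Its call was lost without ligated replicate 1, 2 or 3 (adjusted p = 0.0604, 0.109 and 0.091).

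Other genes of the elastic fibre, a list of 19 with 18 tested, divided as well: 5 rose and 7 fell. Efemp1 (fibulin 3) fell, at 59.9 ± 19.6 against 1630.4 ± 129.7 CPM in ligated and uninjured libraries (mean ± SD, n = 3 each, log2 change −4.77), and Ltbp4, a latent TGF-beta binding protein needed for elastin assembly, fell too, at 92.9 ± 16.3 against 915 ± 133 CPM (−3.30). Adamtsl5 fell (−2.87 on the log2 scale) and Emilin1, an elastin-associated glycoprotein, rose (1.74). Fbn2, the fibrillin of early microfibrils, named after its values were seen, rose, at 714 ± 65.1 against 7.999 ± 6.04 CPM (6.48).

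Of 7 fibrillar collagen genes, substrates of these enzymes, 6 rose and 0 fell. Col1a1 rose by 3.28, Col5a1 by 3.26, Col1a2 by 2.42 and Col5a2 by 2.39 on the log2 scale. Among 8 genes of lysyl oxidase maturation and copper supply (7 tested) 1 rose and 0 fell. It was Postn, encoding periostin, a scaffold for the protease that matures Lox, at 1194 ± 34.5 against 436 ± 126 CPM (1.45). Of 8 elastin-degrading proteases (6 tested) 2 rose, Ctsk (1.30) and Mmp9, and 1 fell, Ctsl (−0.97).

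Markers of mesenchymal types moved with ligation. Adventitial fibroblast markers fell in 6 of 6 cases, with sums of 458 to 1009.7 CPM ligated against 4730.4 to 6699.5 CPM uninjured. Of 9 smooth muscle and pericyte markers 5 rose and 0 fell, with sums of 4543 to 5492 against 72.4 to 160.1 CPM. Most of the ligated sums was Acta2 alone, at 3527 to 4211 CPM. Mesothelial markers fell in 7 of 7 cases, with sums of 56.3 to 72.5 against 317 to 881 CPM. Of 7 fibroblast markers 3 rose and 2 fell, with sums of 38591 to 48206 against 27855 to 33906 CPM. Among them Col1a1 was at 31050 to 41418 against 3229 to 4165 CPM, and Dcn at 3452 to 3848 against 19126 to 22892 CPM. The part of these markers in the changes of the 10 genes was not tested.

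**Figure D2:**
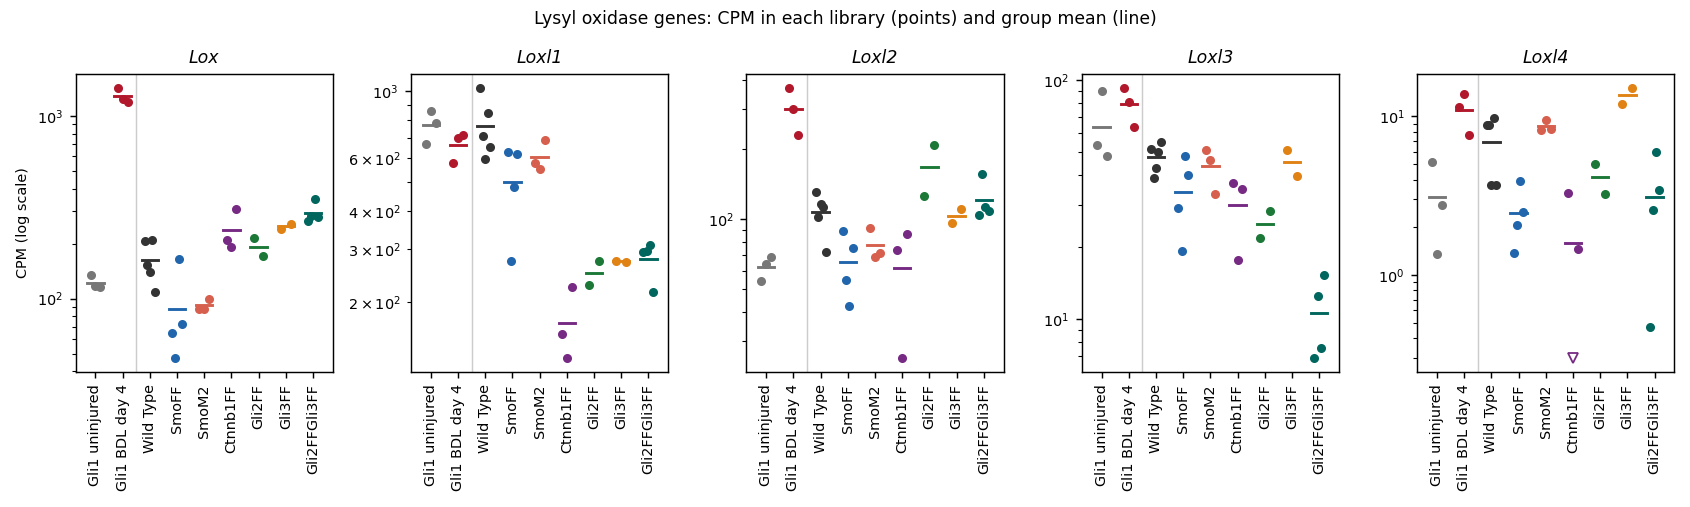
CPM (log axis) of the 5 lysyl oxidases in each of the 29 libraries by group, with points for libraries, lines for group means and an open triangle, drawn at the foot of the panel, for a library at 0. Lox lies at 1193 to 1429 CPM after ligation against 116 to 135 CPM uninjured, and Loxl1 is at 131 to 309 CPM in the Ctnnb1FF, Gli2FF, Gli3FF and Gli2FFGli3FF libraries against 596 to 1025 CPM in wild type.

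Each mutant Pdgfra group was set against wild type, which asks how the 10 genes differ when Hedgehog transduction, its Gli factors or beta-catenin are altered. The Gli1 libraries were scaled apart from them, so levels were not compared between the drivers. All 6 comparisons share the wild type libraries and are not independent. Of the 10 genes, 0 rose and 2 fell in SmoFF (1.55% of 24383 genes called), 0 rose and 0 fell in SmoM2 (0.205%), 0 rose and 3 fell in Ctnnb1FF (19.9%), 0 rose and 3 fell in Gli2FF (5.84%), 1 rose and 3 fell in Gli3FF (4.45%), and 1 rose and 7 fell in Gli2FFGli3FF (17.2%). In Ctnnb1FF 3 of 10 is near the background share. The median log2 change of the 10 was −0.82 in SmoFF, −0.25 in SmoM2, −0.73 in Ctnnb1FF, −0.84 in Gli2FF, −0.06 in Gli3FF and −1.50 in Gli2FFGli3FF. Over all genes it was 0.02, 0.02, −0.61, 0.12, −0.22 and −0.35, respectively.

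By direction, the background in SmoFF was 0.287% of genes higher and 1.26% lower. In SmoM2 it was 0.127% and 0.0779%, in Ctnnb1FF 8.04% and 11.9%, in Gli2FF 2.58% and 3.26%, in Gli3FF 2.09% and 2.36%, and in Gli2FFGli3FF 7.6% and 9.56%. Counting genes whose groups do not overlap, 0 of the 10 lay above wild type and 2 below in SmoFF, against 2.03% and 2.76% of all genes. The same counts were 0 and 3 in SmoM2 (4.19% and 4.22%), 0 and 5 in Ctnnb1FF (9.99% and 15.2%), 0 and 4 in Gli2FF (21% and 13.8%), 3 and 3 in Gli3FF (10.8% and 12.8%) and 1 and 7 in Gli2FFGli3FF (8.75% and 10.7%).

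In SmoM2, 3 of the 10 genes (Lox, Fbn1 and Mfap5) lay below wild type in every library. None passed the test with edgeR, where 3 of the 10 had an unadjusted p under 0.05, while DESeq2 called 2 and limma voom 3. Over all genes DESeq2 called 295 of 19405 in SmoM2 and limma voom 1456 of 24383. In Gli2FF, 44.1% of all called genes were higher, and 55.5% under another scaling (RLE). With wild type replicates 4 and 5 as the only controls the number of the 10 called was 1 in SmoFF, 1 in Gli2FF and 2 in Gli3FF. Over all genes 19, 200 and 485 of 24077 were called with those controls. In the SmoFF comparison the number of the 10 was 1 without wild type replicate 1 or SmoFF replicate 2. It was 1 without Gli2FF replicate 1, and 1 without Gli3FF replicate 1.

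**Figure D3:**
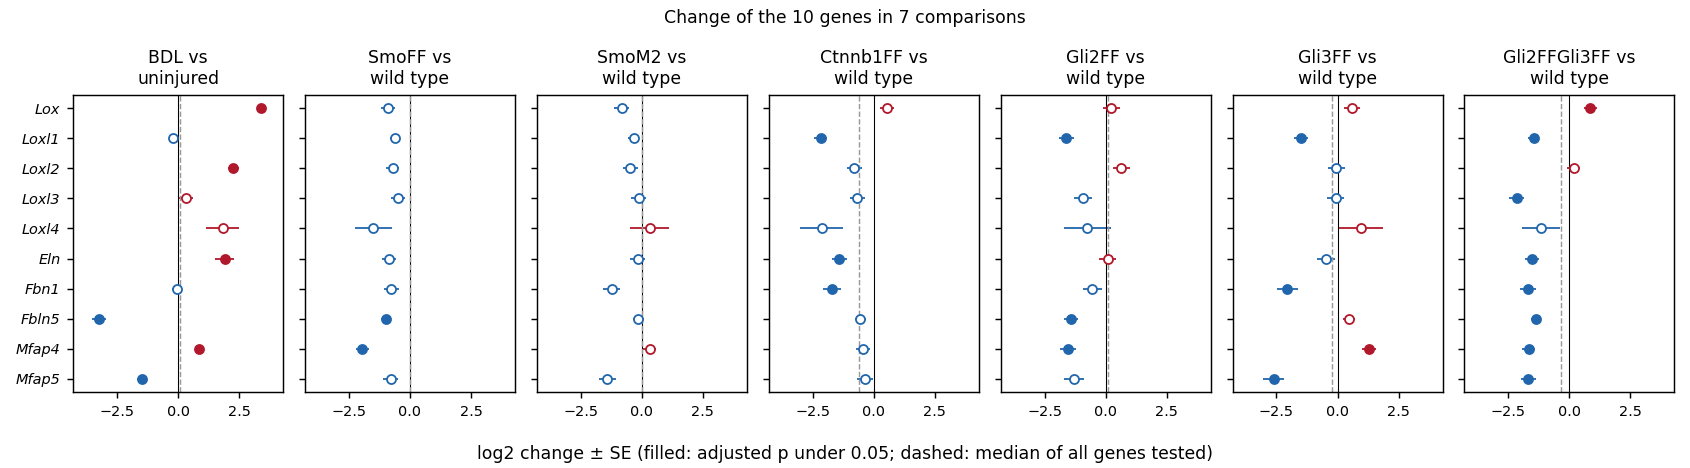
Log2 change (horizontal axis) of the 10 genes in 7 comparisons, with 1 panel per comparison, points for estimates and bars for SE; filled points passed the test and dashed lines give the median over all genes tested. Lox and Loxl2 rose and Fbln5 fell furthest after ligation, Mfap4 fell in SmoFF, Gli2FF and Gli2FFGli3FF and rose in Gli3FF, and 7 of the 10 genes fell in Gli2FFGli3FF.

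Among the lysyl oxidases, Loxl1 fell in 4 of the 6 genotypes. It was at 1025, 710.3, 596, 841 and 654 CPM in wild type, and at 157, 131 and 224 CPM in Ctnnb1FF, 228 and 273 CPM in Gli2FF, 273 and 272 CPM in Gli3FF and 293, 296, 309 and 216 CPM in Gli2FFGli3FF. No library of these 4 groups reached the lowest wild type library. The falls were 4.49-fold in Ctnnb1FF (log2 change −2.17, SE 0.26, adjusted p = 5.03e-06), 3.05-fold in Gli2FF (log2 change −1.61, adjusted p = 0.00228), 2.81-fold in Gli3FF (log2 change −1.49, adjusted p = 0.00357) and 2.75-fold in Gli2FFGli3FF (log2 change −1.46, adjusted p = 0.000103). In Ctnnb1FF the median log2 change over all genes tested was −0.61, and relative to it Loxl1 changed by −1.56. That median depends on the fit and on the genes it tests: it was −0.46 under upper quartile scaling, −0.25 with only those groups fitted and −0.12 with DESeq2, so values relative to it are specific to the fit used. The call in Gli2FF was lost without Gli2FF replicate 1 (adjusted p = 0.0924), and that in Gli3FF without replicate 1 or 2 of Gli3FF (adjusted p = 0.0789 and 0.0541).

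In SmoFF, Loxl1 was at 629, 274, 480.2 and 617 CPM and in SmoM2 at 575, 552 and 686 CPM. Both groups overlapped wild type and neither change was called. By mean the order was wild type, SmoM2, SmoFF, Gli2FFGli3FF, Gli3FF, Gli2FF and Ctnnb1FF, in which all neighbours overlapped except Gli2FF and Ctnnb1FF.

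Lox was at 207, 153, 139.7, 208 and 108 CPM in wild type and 266, 282, 351 and 278 CPM in Gli2FFGli3FF. All 4 mutant libraries were higher and the rise was called (log2 change 0.85, SE 0.27, adjusted p = 0.0322). The call was lost in 8 of 22 other settings, among them wild type replicates 1 to 3 alone as controls (adjusted p = 0.11), replicates 4 and 5 alone (adjusted p = 0.143) and the ribosomal RNA share as a covariate (log2 change 0.90, adjusted p = 0.312). It was lost as well without wild type replicate 2, 3 or 5 (adjusted p = 0.059, 0.07 and 0.0959) and without Gli2FFGli3FF replicate 3 (adjusted p = 0.0584).

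Lox was at 242 and 256 CPM in Gli3FF, above every wild type library but not called (log2 change 0.61, adjusted p = 0.322), and at 87.3, 88.1 and 99.7 CPM in SmoM2, below every wild type library and not called by edgeR (log2 change −0.83, adjusted p = 0.456), though limma voom called it (adjusted p = 0.0203). SmoFF spanned 47.3 to 166 CPM, Gli2FF 172 to 214 CPM and Ctnnb1FF 192 to 311 CPM, each overlapping wild type.

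The share of Lox in the family was higher in the same 4 genotypes in which Loxl1 fell. Loxl1 made up most of the wild type sum, so its fall alone raises the share of Lox, which is not a separate result. Of these genotypes, the level of Lox itself was called higher only in Gli2FFGli3FF. In wild type Lox made up 9.17 to 13.1% of the summed CPM per kb and Loxl1 74.8 to 80.2%. Lox made up 38.5 to 45.5% in Ctnnb1FF, 21.9 and 31.2% in Gli2FF, 30.6 and 31.7% in Gli3FF and 32.6 to 39.4% in Gli2FFGli3FF, where Loxl1 made up 41.7 to 53.8% over all 4 groups. SmoFF (5.96 to 17.4% Lox) and SmoM2 (8.20 to 8.74% Lox) did not reach those shares. The summed level was 242 to 392 CPM per kb in wild type and 88.4 to 191 CPM per kb in the 4 groups, so the larger share of Lox went with a smaller total, unlike after ligation. The ribosomal RNA share, given above, was higher than wild type on average in 3 of these groups and lower in Gli2FF, and its part was not tested.

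Loxl3, a family member with scavenger receptor domains like Loxl2 and Loxl4, was at 51.6, 38.8, 42.7, 49.7 and 55.1 CPM in wild type and 6.88, 12.5, 7.62 and 15.3 CPM in Gli2FFGli3FF. The groups did not overlap (log2 change −2.17, SE 0.30, adjusted p = 2.92e-05), and the call held in all 22 other settings. In Gli3FF Loxl3 was at 50.8 and 39.6 CPM, within reach of wild type, and in Gli2FF at 22.0 and 28.2 CPM, below every wild type library. There the main edgeR fit did not call it (log2 change −0.92, adjusted p = 0.147), while limma voom (adjusted p = 0.0178) and a fit of those groups alone (adjusted p = 0.0193) did. It was below every wild type library in Ctnnb1FF too, at 37.2, 17.8 and 34.9 CPM, and not called there (log2 change −0.67, adjusted p = 0.123). A comparison of Gli2FFGli3FF with Gli3FF, chosen after the values were seen, gave a fall of Loxl3 (log2 change −2.09, SE 0.35, adjusted p = 0.000896).

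Loxl2 overlapped wild type in every genotype, with 72.5 to 131 CPM in wild type, 25.2 to 86.4 CPM in Ctnnb1FF and 127 to 209 CPM in Gli2FF as the groups with the lowest and highest means. Loxl4 ranged from 0 to 15.2 CPM and was called in no genotype in the main edgeR fit. The 0 was Ctnnb1FF replicate 2, where 3 counts, the limit that a count of 0 allows, would be 0.118 CPM. Loxl4 was highest in Gli3FF, at 11.97 and 15.2 CPM, above every wild type library (log2 change 0.97, SE 0.89, adjusted p = 0.584), and in Ctnnb1FF below every wild type library (log2 change −2.14, SE 0.90, adjusted p = 0.0905), where it passed the test with DESeq2 (adjusted p = 0.022), with no filter on low counts (adjusted p = 0.042) and without Ctnnb1FF replicate 1 (adjusted p = 0.0488).

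**Figure D4:**
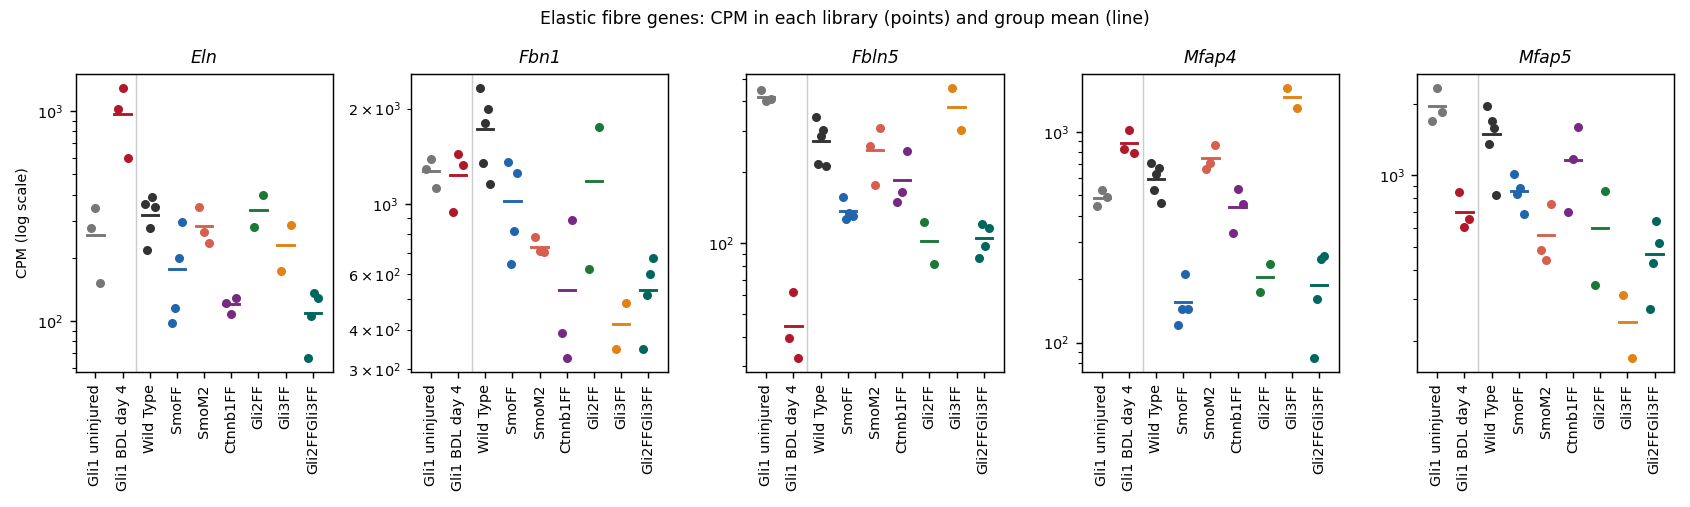
CPM (log axis) of the 5 elastic fibre genes in each of the 29 libraries by group, with points for libraries and lines for group means. Mfap4 ranges from 84.4 CPM in a Gli2FFGli3FF library to 1619.8 CPM in a Gli3FF library, and Fbln5 is at 32.5 to 62.0 CPM after ligation against 403 to 445 CPM uninjured.

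Mfap4 gave the widest spread across the Hedgehog genotypes. It was at 709.7, 529, 630.5, 671 and 459 CPM in wild type and 122, 145, 211 and 145 CPM in SmoFF, 3.86-fold lower with no overlap (log2 change −1.95, SE 0.26, adjusted p = 0.000301). SmoM2 lay at 663, 713 and 866 CPM, overlapping wild type and above every SmoFF library (log2 change 2.26, SE 0.29, adjusted p = 0.000101 for SmoM2 against SmoFF). Both the fall in SmoFF and the difference between SmoM2 and SmoFF held in every other setting, 22 and 18 in number. Mfap4 was the only one of the 10 called between SmoM2 and SmoFF, where 2.63% of genes were called, 1.74% higher and 0.89% lower. Every SmoM2 library lay above every SmoFF library for 3 of the 10 (Fbln5, Mfap4 and Loxl4) and below for 0, against 10.9% and 5.55% of all genes.

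In Gli2FF Mfap4 was at 174 and 237 CPM, below all wild type libraries (log2 change −1.55, SE 0.34, adjusted p = 0.00792), and in Gli3FF at 1619.8 and 1289 CPM, above all of them (log2 change 1.28, SE 0.30, adjusted p = 0.0122). In Gli2FFGli3FF it was at 84.4, 162, 249 and 256 CPM, again below all wild type libraries (log2 change −1.67, SE 0.26, adjusted p = 0.000111). The last call held in all 22 other settings. The call in Gli2FF was lost without Gli2FF replicate 1 (adjusted p = 0.212) and with wild type 4 and 5 as controls (adjusted p = 0.116). The call in Gli3FF was lost without Gli3FF replicate 1 (adjusted p = 0.223), with wild type 1 to 3 (adjusted p = 0.0588) and with wild type 4 and 5 (adjusted p = 0.0993).

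Gli3FF and Gli2FF were set against each other after these values were seen. Mfap4 was 7.08-fold higher in Gli3FF (log2 change 2.82, SE 0.40, adjusted p = 0.000185), and 2 of the 10 genes were higher and 0 lower where 4.84% of all genes were called, 2.56% higher and 2.29% lower. Without overlap, 5 of the 10 lay higher and 3 lower, against 20.1% and 35.6% of all genes. In a fit of those 2 groups alone 0 of the 10 were called (Mfap4 adjusted p = 0.104), and 0 of all 19297 genes tested. Against Gli3FF, Mfap4 was 7.74-fold lower in Gli2FFGli3FF (log2 change −2.95, SE 0.31, adjusted p = 4.35e-06), and that call held in all 17 other settings. Of the 10 genes 0 were higher and 3 lower there, where 5.14% of genes were called, 2.44% higher and 2.7% lower. Without overlap, 1 lay higher and 5 lower, against 12.4% of all genes in each direction. By mean the order was Gli3FF, SmoM2, wild type, Ctnnb1FF, Gli2FF, Gli2FFGli3FF and SmoFF. Gli3FF was separate from SmoM2 and Ctnnb1FF from Gli2FF, and the other neighbours overlapped.

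Fbln5 followed Mfap4 in SmoFF, Gli2FF and Gli2FFGli3FF. It was at 345, 217, 286, 302 and 212 CPM in wild type, 157, 127, 134 and 131 CPM in SmoFF, 123 and 81.3 CPM in Gli2FF and 86.6, 120.4, 96.9 and 115 CPM in Gli2FFGli3FF. All libraries of those 3 groups were below wild type, and it fell in SmoFF (log2 change −0.99, SE 0.21, adjusted p = 0.0166), Gli2FF (log2 change −1.42, adjusted p = 0.00363) and Gli2FFGli3FF (log2 change −1.38, adjusted p = 0.000107). In Gli3FF, at 458 and 303 CPM, and in SmoM2, at 258, 177 and 307 CPM, it overlapped wild type. Gli3FF was nevertheless above Gli2FF (log2 change 1.90, SE 0.32, adjusted p = 0.00103), a call lost in a fit of those groups alone (adjusted p = 0.127), and Gli2FFGli3FF was below Gli3FF (log2 change −1.86, adjusted p = 0.000153). SmoM2 lay above SmoFF in every library and missed the threshold (log2 change 0.85, SE 0.23, adjusted p = 0.0517), which it passed in 6 of 18 other settings, 1 of them without SmoM2 replicate 2 (adjusted p = 0.0495).

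The call of Fbln5 in SmoFF was lost without wild type replicate 1 (adjusted p = 0.0621), without SmoFF replicate 2, 3 or 4 (adjusted p = 0.0541, 0.0675 and 0.0635) and with wild type 4 and 5 as controls (adjusted p = 0.643). In Gli2FF it was lost without Gli2FF replicate 2 (adjusted p = 0.088) and with wild type 4 and 5 (adjusted p = 0.0578).

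Eln fell in Ctnnb1FF and Gli2FFGli3FF. It was at 361, 219, 276, 391 and 348 CPM in wild type, 122, 109 and 129 CPM in Ctnnb1FF and 66.6, 106, 136 and 128 CPM in Gli2FFGli3FF, both without overlap. The changes were −1.41 on the log2 scale in Ctnnb1FF (SE 0.32, adjusted p = 0.0032, −0.80 relative to all genes) and −1.55 in Gli2FFGli3FF (SE 0.29, adjusted p = 0.000681). With the ribosomal RNA share as a covariate the second call was lost (log2 change −0.91, adjusted p = 0.301). Eln was at 98.2 to 297 CPM in SmoFF, 235 to 350.3 CPM in SmoM2, 281 to 397 CPM in Gli2FF and 174 to 286 CPM in Gli3FF, all overlapping wild type.

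Fbn1 had a lower mean than wild type in all 6 genotypes and fell in 3. It was at 2331, 1348, 1805, 1996 and 1153 CPM in wild type, 390.1, 325 and 885 CPM in Ctnnb1FF, 348 and 484 CPM in Gli3FF and 348, 515, 601 and 673 CPM in Gli2FFGli3FF. These 3 groups did not overlap wild type (Ctnnb1FF log2 change −1.69, adjusted p = 0.00214, and −1.08 relative to all genes; Gli3FF log2 change −2.05, adjusted p = 0.0067; Gli2FFGli3FF log2 change −1.69, adjusted p = 0.000961). The Gli3FF call was lost without Gli3FF replicate 1 (adjusted p = 0.171) and with wild type 4 and 5 as controls (adjusted p = 0.0598). The 2 Gli2FF libraries differed widely, at 621 and 1744 CPM. SmoM2 was below every wild type library at 783, 708 and 702 CPM, not called (log2 change −1.24, SE 0.36, adjusted p = 0.225), though DESeq2, limma voom, a fit without a filter on low counts and a fit of those groups alone each called it.

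Mfap5 fell most in Gli3FF. It was at 1965, 1350.2, 1692, 1584 and 827 CPM in wild type, 313 and 169 CPM in Gli3FF and 272, 428, 638 and 517 CPM in Gli2FFGli3FF. Both groups lay below wild type, 6.15-fold in Gli3FF (log2 change −2.62, SE 0.44, adjusted p = 0.000843) and 3.20-fold in Gli2FFGli3FF (log2 change −1.68, adjusted p = 0.000766), and both calls held in every other setting. SmoM2, at 483, 437 and 756 CPM, was below every wild type library and not called in the main edgeR fit (log2 change −1.41, adjusted p = 0.105), though the 4 alternatives that called Fbn1 there called it too. So in Gli3FF the 2 microfibril-associated genes changed in opposite directions, Mfap4 up and Mfap5 down.

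In the genotypes where Mfap5 fell, adventitial fibroblast markers fell too. They did so in 5 of 6 cases in Gli3FF, with sums of 1176 to 1550.5 CPM against 4095 to 4926 CPM in wild type, and in 4 of 6 in Gli2FFGli3FF (1311 to 1981 CPM). Of the 6, 3 fell in Ctnnb1FF (2076 to 3425 CPM), 2 in Gli2FF (931 to 2427 CPM) and 0 in SmoM2 (2106 to 3083 CPM) or SmoFF (3075 to 4599.9 CPM). Smooth muscle and pericyte markers rose in 3 of 9 cases in Gli2FFGli3FF (192 to 460.0 CPM against 64.4 to 92.4 CPM), and mesothelial markers fell in 3 of 7 cases in Gli3FF (81.1 to 127 CPM against 158 to 402 CPM). In Ctnnb1FF 3 of 9 smooth muscle and pericyte markers rose and 1 fell (93.8 to 301 CPM), and 3 of 7 mesothelial markers fell (63.4 to 206 CPM). In SmoM2 and in Gli3FF 1 smooth muscle and pericyte marker rose (294 to 324 and 194 to 228 CPM). In SmoFF 0 of 7 mesothelial markers were called, but 7 had a log2 change above 0, with a median of 1.74. Their sums of 464 to 1166 CPM lay above every wild type sum. In SmoM2, Gli2FF and Gli2FFGli3FF 0 mesothelial markers were called and the sums overlapped wild type. Of the 7 cholangiocyte markers 2 fell in Gli3FF (sums of 4.94 to 7.91 CPM against 48.1 to 76.3 CPM in wild type). Among them Krt7 was at 0 CPM in both Gli3FF libraries. Of the 7 fibroblast markers, 2 fell in SmoFF (sums of 13883 to 18026 CPM against 21628 to 26940 CPM in wild type). In Gli2FF 3 fell (13988 to 15076 CPM), in Gli2FFGli3FF 2 fell (16611 to 22483 CPM), and in Gli3FF 2 rose (30709 to 38002 CPM). Ctnnb1FF had 1 rise and 1 fall (26927 to 31162 CPM), and SmoM2 0 calls (23030 to 27994 CPM). The part of these markers in the changes of the 10 genes was not tested.

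Gli2FFGli3FF was also compared with SmoFF, to set loss of the 2 Gli factors beside loss of the transducer. Of the 10 genes 2 were higher and 2 lower, where 16.5% of all genes were called, 7.68% higher and 8.83% lower. Without overlap, 2 lay higher and 3 lower, against 9.56% and 10.6% of all genes. Lox was higher (log2 change 1.75, SE 0.29, adjusted p = 0.000219) and Loxl3 lower (log2 change −1.68, SE 0.30, adjusted p = 0.000495), each without overlap. Loxl2 was higher (log2 change 0.89, adjusted p = 0.0443), and Loxl1 lower although its groups overlapped (log2 change −0.84, adjusted p = 0.015). The Loxl2 call was lost in 8 of 19 other settings, among them those without SmoFF replicate 2, 3 or 4 (adjusted p = 0.108, 0.15 and 0.0763) and without Gli2FFGli3FF replicate 2 or 4 (adjusted p = 0.0964 and 0.0578). Without Gli2FFGli3FF replicate 4 the number called was 2 (Loxl1 adjusted p = 0.0524), and with the ribosomal RNA share as a covariate it was 1. Lox (log2 change 1.80, adjusted p = 0.0763), Loxl2 (0.47, adjusted p = 0.71) and Loxl3 (−1.24, adjusted p = 0.183) were then no longer called. Over all genes 494 of 24383 were called with that covariate, against 4026 without it. The change of Lox was as large with that covariate as without it. Mfap4 was not called between them, with a 95% interval of its log2 difference from −0.24 to 0.79. Fbln5 and Mfap5 were below SmoFF in every Gli2FFGli3FF library without passing in the main edgeR fit (log2 change −0.39, adjusted p = 0.21, and log2 change −0.88, adjusted p = 0.0623). Mfap5 passed with DESeq2 (adjusted p = 0.0286), with no filter on low counts (adjusted p = 0.000597), with a replicate block (adjusted p = 0.0412) and in a fit of those groups alone (adjusted p = 0.0378).

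Of the 19 other elastic fibre genes, 0 rose and 1 fell in SmoFF, 0 rose and 1 fell in SmoM2, 0 rose and 8 fell in Ctnnb1FF, 0 rose and 4 fell in Gli2FF, 1 rose and 3 fell in Gli3FF, and 0 rose and 9 fell in Gli2FFGli3FF. Emilin2, an elastin interface glycoprotein, fell in Gli3FF (23.5 ± 4.97 against 159.6 ± 29.7 CPM in wild type, −2.76 on the log2 scale), and fell in Gli2FFGli3FF (−1.15), Ctnnb1FF (−1.28) and SmoM2 (−1.03). Fbln2, fibulin 2, fell in Gli3FF (−2.39), Ctnnb1FF (−1.76) and Gli2FFGli3FF (−1.43). Mfap2, a relative of Mfap5, fell in SmoFF (−1.17) and Gli2FF (−1.20), and Emilin1 rose in Gli3FF (1.03).

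Of the 7 fibrillar collagens, 4 fell in SmoFF, 3 fell in Ctnnb1FF, 2 rose in Gli3FF and 1 fell in Gli2FFGli3FF, with 0 called in the other direction in each and 0 called in SmoM2 or Gli2FF. Col1a1 fell in SmoFF (−1.42) and rose in Gli3FF (0.79). Of the 8 genes of maturation and copper supply, Atox1, a copper chaperone, rose in Gli2FFGli3FF (221 ± 6.24 against 72.3 ± 6.43 CPM, 1.61 on the log2 scale) and in Ctnnb1FF (1.64). Bmp1, the protease that matures Lox, fell in Ctnnb1FF (−1.53) and Gli3FF (−1.30), Fn1 fell in the same genotypes (−1.06 and −2.29), and Postn fell in Gli2FF (−1.89) and Gli2FFGli3FF (−1.20).

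The genes most alike to each member were found by Pearson r of log2 CPM over the 23 Pdgfra libraries among 8103 genes. These libraries share groups and 1 scaling, so r is a description. Fbln5 was the nearest of the 10 genes to Mfap4 (r = 0.86, rank 6 among all genes), and Mfap4 ranked 5 for Fbln5, while r within groups, after removing group means, was 0.33. Cilp (0.91), Lbh (0.90) and Serpinf1 (0.89) were nearest to Mfap4, and Vamp2, Mpzl1 and Pltp (0.88, 0.88 and 0.87) to Fbln5. Nearest to Loxl1 were Txndc5 (0.94), Efs (0.94) and Aup1 (0.92). Tnxb (0.88), Fbln2 (0.87) and Axl (0.86) were nearest to Fbn1, and Anxa3 (0.86), Ugp2 (0.83) and Tmem100 (0.82) to Mfap5.

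Lox had no close partner in the set. Its nearest of the 10 was Loxl2 (r = 0.34, rank 1576), and Ugcg (0.82), Klhl7 (0.82) and Cp (0.82) were nearest among all genes. Ppp1r15b (0.83) was nearest to Loxl2, Pamr1 (0.89) to Loxl3 and Arhgef40 (0.88) to Eln. After group means were removed, r was 0.74 for Txndc5 with Loxl1, 0.77 for Tnxb with Fbn1, 0.75 for Anxa3 with Mfap5, 0.75 for Arhgef40 with Eln and 0.69 for Ppp1r15b with Loxl2. It was lower for Cilp with Mfap4 (0.50), Vamp2 with Fbln5 (0.47), Ugcg with Lox (0.44) and Pamr1 with Loxl3 (0.37). Loxl4 was too low for this measure.

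Per kilobase, Mfap5 was the highest of the 10 in wild type (413 ± 119 CPM per kb, mean ± SD, n = 5), followed by Mfap4 (312 ± 54.0), Loxl1 (232 ± 51.9) and Fbn1 (142 ± 39.5). In Gli3FF Mfap4 (757 ± 122 CPM per kb, n = 2) led and Mfap5 was at 67.2 ± 28.3. In uninjured Gli1 libraries Mfap5 led at 545 ± 95.1 CPM per kb with Lox at 25.6 ± 2.22, and after ligation Mfap4 led at 458 ± 65.6 with Lox at 269 ± 26.4 (n = 3 each). Loxl4 was the lowest of the 10 in every group.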

How the data were processed

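Unnormalised counts, whole numbers per gene symbol in 8 matrices, were deposited by the authors for 29 bulk RNA-seq libraries. Reads were placed on mm10 according to the submitters' processing notes. For aligner, counter, annotation and strand the sources used here give no name, so reads of overlapping or antisense genes cannot be told apart. Total counts of 15021796 to 38301189 per library limit precision mainly for Loxl4. Labels give individual animals as replicates.

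Groups came from sample titles. The 6 Gli1 and 23 Pdgfra libraries were fitted separately by edgeR's quasi-likelihood F test (edgeR 4.0.16, R 4.3.3) after filterByExpr and TMM, without covariates, with Benjamini-Hochberg adjustment over all genes tested and a threshold of 0.05; SE was the log2 change divided by the root of F. The 95% intervals ran 1.96 SE to each side of the log2 change. That is a normal quantile, so with few libraries they are approximate and too narrow. CPM used the TMM-scaled totals, and levels per kb used GENCODE M21 union exon length. The code was tested on simulated data. Tables used pandas 2.3.3 and Python 3.11.15.

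The 10 genes, the partner lists and the markers were chosen with earlier results of these data known. All 10 were named in each comparison, with statistics where a gene was called or the groups did not overlap, plus up to 4 called genes of each partner list with the smallest p, and the 3 genes with the highest r. The comparisons of Gli3FF with Gli2FF and of Gli2FFGli3FF with Gli3FF were added after the values were seen, as were the ACCACCC and GC box searches. Alternatives were DESeq2 1.42.0, limma 3.58.1 voom with quality weights, RLE and upper quartile scaling, TMM over all 29 libraries, totals without the ribosomal RNA locus, no filter, a filter at 10 counts in 2 libraries, a replicate block, the ribosomal RNA share as a covariate, the groups compared alone, each wild type set alone, and leaving out each library.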

Additional observations from a re-analysis of the deposited data

Results flagged for a closer look

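Each of the 10 genes was checked for a library far from the others in the 3 groups of 4 or 5 libraries, 30 sets in all, and 2 sets had one, where chance gives about 1 in 20. Loxl1 in Gli2FFGli3FF replicate 4 was at 216 CPM, below the other 3 libraries of that group at 293 to 309 CPM. Loxl2 in Gli2FFGli3FF replicate 2 was at 157 CPM, above the other 3 at 104 to 113 CPM.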

How the results depend on the processing

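Among changes of the 10 genes that were called or whose groups did not overlap, 0 reversed direction in the alternatives run. Leaving out 1 library kept 370 of 403 changes on their side of the threshold, and the other alternatives kept 629 of 680. The number of the 10 genes called, without 1 library at a time, was 3 to 6 after ligation, 1 to 3 in SmoFF, 1 to 4 in Gli2FF, 1 to 4 in Gli3FF, 1 to 2 for SmoM2 against SmoFF and 2 to 5 for Gli2FFGli3FF against SmoFF. With no filter on low counts it was 6 in SmoFF, 2 in SmoM2, 5 in Ctnnb1FF and 2 for SmoM2 against SmoFF. It was 7 for Gli2FFGli3FF against SmoFF, 4 for Gli3FF against Gli2FF and 5 for Gli2FFGli3FF against Gli3FF. Of 39351 genes, that setting called 913, 394, 5443, 1053, 4790, 1641 and 2058 in these comparisons, in that order. The main fit called 377, 50, 4852, 641, 4026, 1181 and 1254 of 24383. DESeq2 gave 2 of the 10 in SmoM2, 2 for SmoM2 against SmoFF and 4 for Gli3FF against Gli2FF. Over all genes it called 295 of 19405, 1703 of 22978 and 2523 of 20855 there. With limma voom it was 3 of the 10 in SmoM2 and 5 in Gli2FF, where 1456 and 5732 of 24383 genes were called. The main fit called 1423 in Gli2FF. With only the groups compared the number of the 10 was 2 in SmoM2 and 0 for Gli3FF against Gli2FF. There 266 of 19521 and 0 of 19297 genes were called. With wild type 4 and 5 as controls the number of the 10 was 1 in SmoFF, 1 in Gli2FF and 2 in Gli3FF. Of 24077 genes, 19, 200 and 485 were called there, against 377, 1423 and 1085 of 24383 in the main fit. For SmoM2 against SmoFF the number of the 10 was 2 with upper quartile scaling, TMM over 29 libraries or the ribosomal RNA covariate. Of 24383 genes, 612, 639 and 750 were called there, in that order. The covariate gave 1 of the 10 for Gli2FFGli3FF against SmoFF, where it called 494 genes. The cause of these shifts was not tested. Depth limits Loxl4 most, with 0 counts in 1 library.

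Same-numbered libraries showed no strong shared deviation from their group means (r of −0.32 to 0.22). Some were still most alike to the library of the same number, as were replicates 4 of SmoFF and wild type (r = 0.22). In groups of 2 the deviations mirror each other, so this check cannot exclude a pairing by number. With a replicate block the number called was 4 after ligation, 3 in SmoFF, 0 in SmoM2, 3 in Ctnnb1FF and 3 in Gli2FF. It was 4 in Gli3FF, 7 in Gli2FFGli3FF, 1 for SmoM2 against SmoFF and 4 for Gli2FFGli3FF against SmoFF. Over all genes, 428 of 17150 were called after ligation. The others, in that order, had 498, 37, 3261, 1282, 748, 2872, 489 and 3363 of 24383. The block ended the calls of Mfap4 and Mfap5 after ligation (adjusted p = 0.0783 and 0.0628), of Lox in Gli2FFGli3FF (0.0728) and of Loxl2 for Gli2FFGli3FF against SmoFF (0.0598). It brought calls of Mfap5 for Gli2FFGli3FF against SmoFF (0.0412) and of Eln for Gli2FFGli3FF against Gli3FF (0.0259).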
